A study of Mus musculus with 9 samples.

Results

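Lysosomal genes were followed in microglia, the resident macrophages of the brain, 1 day after an astrocyte lesion of the kind seen in neuromyelitis optica (NMO). The set held 34 of the 23238 gene symbols counted and was a list of names chosen by function: 8 cysteine proteases, 3 aspartic or serine proteases, 8 glycosidases, 5 lipid enzymes or carriers, progranulin, 6 membrane proteins and 3 transcription factors. All 34 were detected and all passed the filter on low counts. The cells came from adult female wild-type C57BL/6N mice and were sorted from brain on CD45, CD11b and P2ry12, a receptor of homeostatic microglia. Normal mice had no treatment, NMO mice had patient-derived NMO-IgG and human complement infused into the striatum on 1 side, and NMO+CL mice had in addition clodronate liposomes in the peritoneum beforehand, an agent that depletes circulating monocytes and macrophages. Each group had 3 libraries, each an independent pool of 3 mice. Mice with control IgG or with liposomes that lack clodronate were not analysed here, so that the wound, the antibody and the complement cannot be told apart in NMO, nor clodronate and liposome in NMO+CL.

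Lysosomes are acidic organelles in which proteases, glycosidases and lipases break down material taken up by phagocytosis or delivered by autophagy. Soluble enzymes reach them by sorting from the Golgi, and a proton pump (V-ATPase) keeps them acidic. Microglia clear debris, synapses and myelin through this route, and inherited loss of many of these enzymes leads to storage disease of the brain. The transcription factors TFEB, TFE3 and MITF bind E-boxes with the core CACGTG near the start of many lysosomal genes.

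That core was looked for in the members' promoters, since it is the sequence that ties this gene set to its regulators. Promoters from 250 bases before to 50 bases after the start were taken from RefSeq (GRCm38.p6) for 30 of the 34 members. The core CACGTG, which reads the same on both strands, was present in 11 of the 30 (36.7%), in 17 of 79 other lysosomal genes (21.5%) and in 2187 of all 27025 promoters in the table (8.09%). The longer CLEAR palindrome, the same core with GT before it and AC after it, was in 0 of the 30 and in 0.37% of all promoters, and TCATGTG, searched on both strands, was in 6 of them (20%) against 4.31% of all promoters. Promoters of these 11 members held 18 cores, of which 12 lay within 100 bases before the start, and 5 members had more than 1. Cores were counted at every listed start, so that the 2 of Ctsa, which has 2 listed starts, may be 1 core seen from both. The stretches below show the 4 cores of Lamp1, the pair of Mcoln1, 1 core of Ctsd as an example from a highly counted gene, and the E-boxes of the called members Ctsf and Lgmn, written 5′ to 3′ on the gene's strand, with the core in capitals.
Lamp1 (chr8:13159083-13159160, plus strand): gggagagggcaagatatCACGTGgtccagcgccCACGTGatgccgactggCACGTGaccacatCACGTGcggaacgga
Mcoln1 (chr8:3500431-3500496, plus strand): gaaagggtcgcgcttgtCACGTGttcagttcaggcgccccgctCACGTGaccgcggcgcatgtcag
Ctsd (chr7:142387903-142387942, minus strand): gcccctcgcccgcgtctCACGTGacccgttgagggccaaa
Ctsf (chr19:4855069-4855108, plus strand): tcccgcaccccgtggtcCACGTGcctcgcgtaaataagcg
Lgmn (chr12:102439119-102439158, minus strand): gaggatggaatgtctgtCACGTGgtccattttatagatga
Lamp1 held 4 cores in a row, the most of any member, and Mcoln1 held 2. Of the 7 members whose transcript changed in any comparison, Ctsf and Lgmn held the core, whereas Ctsc, Gusb, Cd63, Hexa and Mitf did not in this window. The core of Lgmn was found at 1 of its 2 listed starts, and it lies within the gene span given below.

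Libraries held 5788234 to 7837219 counts, and values are given as CPM, counts per 1000000 after scaling for library composition. The sorted cells carried microglial transcripts throughout, with Tmem119 at 2118 to 3451 CPM and Cx3cr1 at 6898 to 12791 CPM, whereas the T-cell gene Cd3e was at 0 in all 9 libraries. Of 7 astrocyte and oligodendrocyte markers, Gfap was at 0 in 8 libraries, but Slc1a3 was found in every library at 66.8 to 203 CPM and fell in NMO+CL against Normal (edgeR adjusted p = 0.027). That list summed to 179 to 211 CPM in Normal, then 99.7 to 135 for NMO and 78.6 to 127 for NMO+CL. Most of each sum was Slc1a3, with means of 176, 108 and 95.5 CPM in the same order, whereas Aqp4 had 5.06, 8.49 and 7.66 CPM. Of the 5 genes of the list that were tested, 2 had a positive log2 change in NMO against Normal and 1 in NMO+CL against Normal. The summed level of 8 microglial markers was 28959 to 35008 CPM in Normal, then 24803 to 29378 for NMO and 16635 to 25673 in NMO+CL. Of these 8 markers 1 fell in NMO against Normal, 3 between NMO+CL and NMO, and 6 between NMO+CL and Normal, where 0.0244%, 1.07% and 4.43% of all genes were called lower. P2ry12, on which the cells were sorted, was among them in both NMO+CL comparisons, with log2 changes of -2.22 against NMO (edgeR adjusted p = 1.73e-05) and -2.79 against Normal (4.62e-07). The sum of 8 neutrophil markers was 41.5 to 530.2, 102 to 379 and 265 to 1292 CPM in the same order, and that of 9 monocyte markers 31.5 to 59.9, 60 to 123 and 54.8 to 113 CPM, with the defining gene Ly6c2 at or below 5.6 CPM. Of these 9, only Fn1 was called in NMO+CL against Normal, rising from 4.41 to 24.2 CPM on average (log2 change 2.45, edgeR adjusted p = 0.0218). Of the 9 log2 changes there, 6 were positive and 3 negative, among the latter that of Ccr2 at -1.25. NMO replicate 2 had 0 counts of the border macrophage gene Cbr2 where the other 8 libraries had 741 to 2467. Other markers of that cell type did not set it apart. Its Mrc1 was at 8.62 CPM, within the 7.85 to 20.4 CPM of all libraries, and Lyve1 and Pf4 were at 0 in NMO replicate 3 as well. Where removal of NMO replicate 2 changed the call of a gene named here, the value without it is given. In such bulk samples, fewer cells of a type and less RNA per cell cannot be told apart.

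The lysosomal members together summed to 28550 to 31224 CPM in Normal, 27899 to 28791 in NMO and 26965 to 28523 in NMO+CL, so that NMO overlapped both other groups and NMO+CL lay narrowly below Normal. As a share of the counts deposited they took 2.68 to 3.02%, 2.83 to 3.1% and 2.66 to 2.94%, with overlap between all groups. Those counts include the ribosomal transcript Rn45s, which took 16.1 to 31%, 16 to 21.6% and 20.7 to 26.7% of them. It also enters the library totals used as an alternative scaling, and its part in these shares was not tested. Of the members' counts 28% came from Ctss, 20.2% from Ctsd and 10.7% from Psap, which made up 59% together. Mcoln1 and Gla were the scarcest, at 2.72 to 13.8 and 1.44 to 17.8 CPM. The coefficient of variation between replicates had a median over members of 16% for Normal, 15.5% for NMO and 17.7% for NMO+CL, against 27.1%, 31.9% and 33.1% over all genes tested.

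Members were called in 2 of the 3 comparisons, and in both directions in NMO+CL against Normal. In NMO against Normal 1 of 34 members was called (2.94%), namely Ctsc, which rose. A call means an adjusted p under 0.05 in edgeR's quasi-likelihood test over all 12292 genes, of which 0.496% were called (0.472% higher and 0.0244% lower). Between NMO+CL and Normal 7 of 34 were called (20.6%, against 9.23% of all genes), and they went both ways: Ctsc, Gusb and Cd63 rose, whereas Ctsf, Lgmn, Hexa and Mitf fell. Higher calls took 4.79% and lower calls 4.43% of all genes there. With clodronate, set against NMO alone, 0 members were called by edgeR, where 1.59% of all genes were (0.529% higher and 1.07% lower). At an unadjusted p under 0.05 that comparison held 8 members, 23.5% of them against 12.4% of all genes, where NMO against Normal held 4 (11.8% against 9.51% of all genes) and NMO+CL against Normal 14 (41.2% against 22.3%). In NMO+CL against NMO, DESeq2 called 4 members (Cd63, Ctsc and Ctsh higher and Hexa lower, 3.86% of all genes called), and limma-voom called Cd63 higher and Lgmn lower (1.49% of all genes). DESeq2 called 1.81% of all genes in NMO against Normal and 12.8% in NMO+CL against Normal. By a 1.5-fold change with an unadjusted p under 0.05, 2 members were higher and 2 lower in NMO than in Normal (5.20% and 2.77% of all genes), 2 higher and 3 lower in NMO+CL than in NMO (4.09% and 6.65%), and 3 higher and 5 lower in NMO+CL than in Normal (9.90% and 10.2%).

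The median log2 change of the members was -0.06 in NMO against Normal, -0.13 between NMO+CL and NMO, and -0.22 between NMO+CL and Normal, where the median over all genes was -0.01 each time. With 1 library left out the members' medians ranged from -0.08 to -0.01, -0.13 to -0.06 and -0.23 to -0.15. Within 1.5-fold were 30, 29 and 26 of the 34, against 8422, 7971 and 6824 of all 12292 genes tested. Members changed at least 1.5-fold in which the groups' libraries did not overlap numbered 4 (11.8%) in NMO against Normal, 3 between NMO+CL and NMO, and 8 (23.5%) between NMO+CL and Normal. The same held for 11.4%, 12.2% and 23.0% of all genes tested, so that by this measure the members' shares stood near or below the background. At an unadjusted p under 0.05 they stood above it in each comparison, though little in NMO against Normal. Shares called by edgeR stood above it in NMO against Normal, by 1 member, and in NMO+CL against Normal, but below it in NMO+CL against NMO. The background was not matched to the members' smaller spread between replicates, and the members were chosen with earlier results of these data known. Without NMO replicate 2 edgeR called 0 members in NMO against Normal (0.261% of all genes), 1 higher (Cd63) in NMO+CL against NMO (1.07% of all genes), and again 3 higher and 4 lower in NMO+CL against Normal (9.21%), and without NMO+CL replicate 1 the last counts were 3 and 2 (7.66% of all genes). The comparisons share libraries and are not independent of each other.

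**Figure D1:**
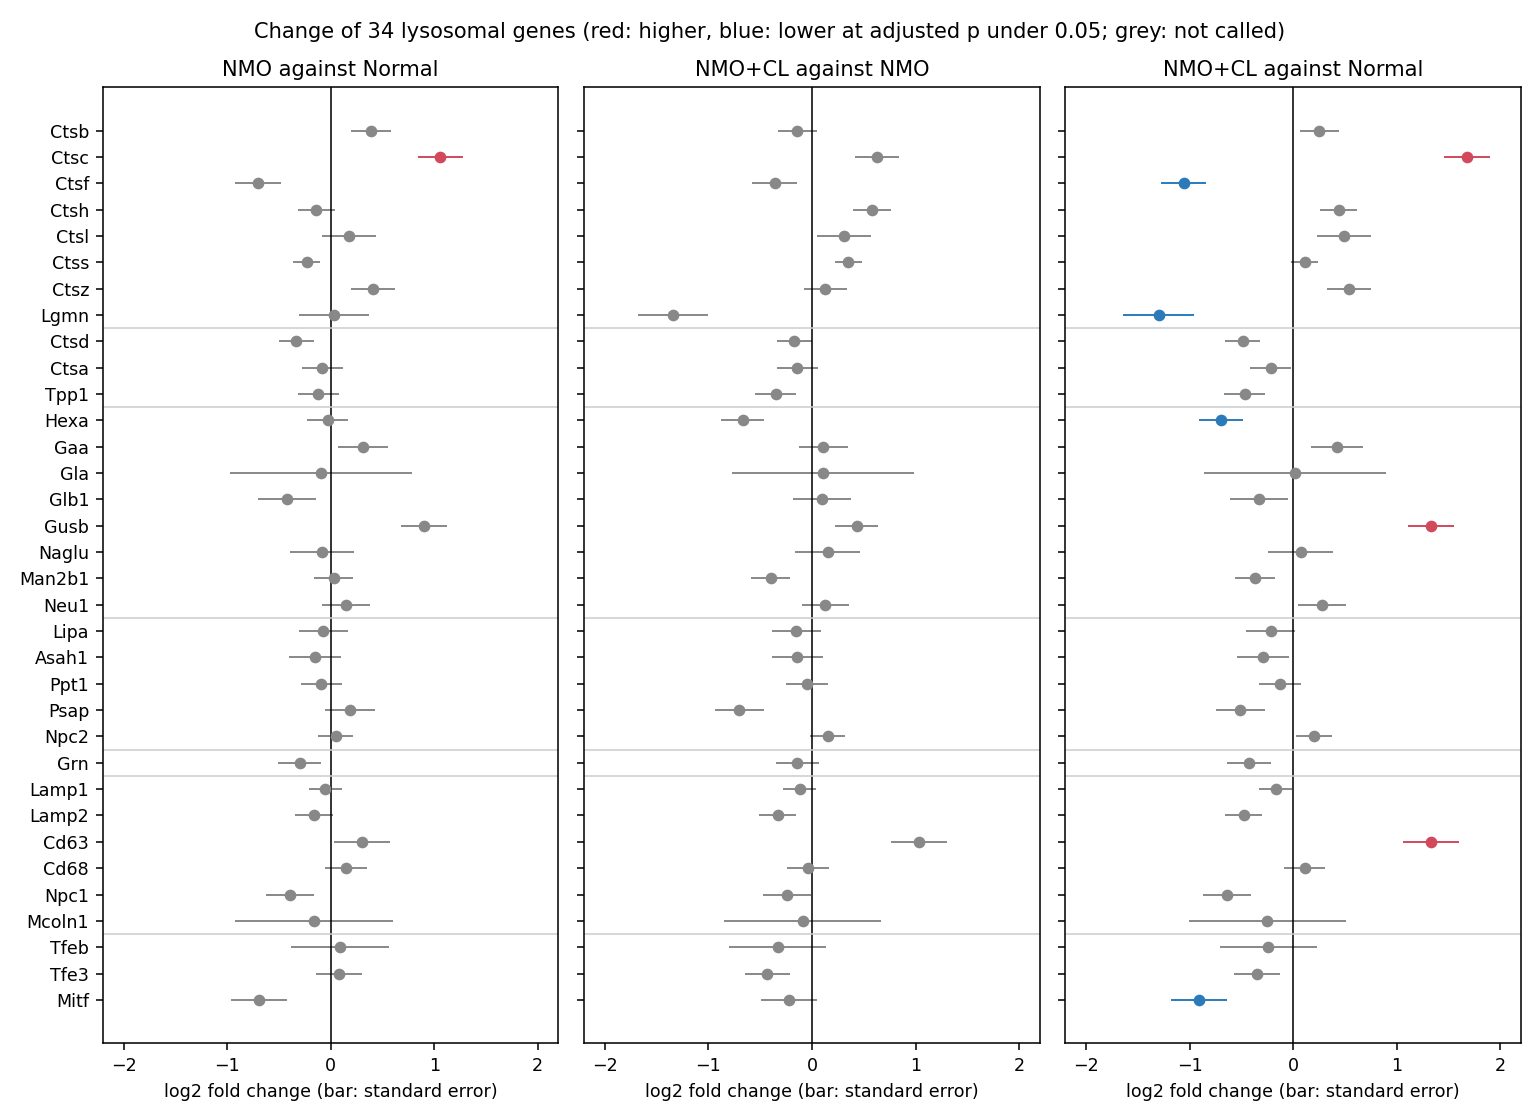
Log2 fold change of each of the 34 lysosomal genes (horizontal axis, bar: standard error) in the 3 comparisons, with genes ordered by role and grey lines between roles. Red marks genes called higher and blue genes called lower: 1 gene in NMO against Normal, 0 in NMO+CL against NMO, and 3 higher with 4 lower in NMO+CL against Normal.

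Among the cysteine proteases, Ctsc rose and Ctsf and Lgmn fell. Ctsc (chr7:88278085-88310888, GENCODE M21 on GRCm38) encodes cathepsin C, a dipeptidyl peptidase that activates the serine proteases of granules. It was at 265, 247 and 306 CPM in the Normal libraries, 629, 671 and 401 in NMO, and 917, 1035 and 671 in NMO+CL. Every NMO library lay above every Normal library, and the NMO+CL libraries lay at or above the highest NMO library. The log2 change was 1.06 ± 0.22 in NMO against Normal (standard error, edgeR adjusted p = 0.035), 0.63 ± 0.21 in NMO+CL against NMO (adjusted p = 0.186) and 1.68 ± 0.22 in NMO+CL against Normal (adjusted p = 1.14e-04). The call of the rise in NMO over Normal was lost, with log2 changes that stayed between 0.91 and 1.24 over the alternatives, without NMO replicate 2 (0.91, edgeR adjusted p = 0.122), NMO replicate 1 (0.165), or Normal replicate 1 (0.149), 2 (0.184) or 3 (0.112), and with only these groups in the fit (0.0523). The rise in NMO+CL over Normal was called without NMO replicate 2 and without NMO+CL replicate 1, the library with most neutrophil transcripts (1.65, adjusted p = 3.44e-04). Neutrophils also express Ctsc, and the part of the marker sums above in its change was not tested. The last 500 bases of its transcript hold a stretch of up to 86 bases that resembles stretches in transcripts of 45 other genes at 95% identity or more. Either strand and any place in those transcripts counted, so that whether reads from multiple alignments are shared is not known.

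Ctsf (chr19:4855130-4860918), cathepsin F, moved the other way. It was at 109, 129 and 145 CPM in Normal, 74.8, 77.2 and 84.1 in NMO, and 56, 50.7 and 77 in NMO+CL. Normal lay above both injected groups without overlap, and the injected groups overlapped. Its log2 change was -1.06 ± 0.22 in NMO+CL against Normal (edgeR adjusted p = 0.00558) and -0.70 ± 0.22 in NMO against Normal (adjusted p = 0.232).

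Lgmn (chr12:102394084-102439813) encodes legumain, an asparaginyl endopeptidase that also processes other cathepsins. Its levels were 1609, 1121 and 1769.6 CPM in Normal, 1603, 2114 and 891 in NMO, and 984, 533 and 308 in NMO+CL. All NMO+CL libraries lay below all Normal libraries, whereas NMO spanned the Normal range and its lowest library overlapped NMO+CL. The log2 change was -1.30 ± 0.34 in NMO+CL against Normal (edgeR adjusted p = 0.0216) and -1.34 ± 0.34 in NMO+CL against NMO (adjusted p = 0.0611). The call of the first was lost, with log2 changes of -1.83 to -0.98 over the alternatives, on leaving out Normal replicate 1 (adjusted p = 0.0745), Normal replicate 3 (0.0928), NMO+CL replicate 2 (0.0894) or NMO+CL replicate 3 (0.0594), and with DESeq2 (0.058). The second ranged from -1.87 to -1.02 when a library was left out. It was called without NMO replicate 3 (edgeR adjusted p = 0.0234) or NMO+CL replicate 1 (0.00588), with limma-voom (0.0133), the replicate block (0.0265), library totals (0.0474) and all genes kept (4.78e-09). It was not called without NMO replicate 1 (0.164) or 2 (-1.03, 0.175) or NMO+CL replicate 2 (0.23) or 3 (-1.02, 0.137), nor without any 1 of the Normal libraries (0.0816 to 0.0997), with DESeq2 (0.124), with its size factors in edgeR (0.0667) or with only these groups in the fit (0.162).

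Ctss, cathepsin S, a protease that keeps activity at neutral pH and processes the invariant chain, was the most abundant member by counts. It was at 8598, 8724 and 7279 CPM in Normal, 7489, 6668 and 6793 in NMO, and 8843, 9054 and 8716 in NMO+CL. NMO+CL lay above NMO in every library, by a log2 change of 0.35 ± 0.13 that did not pass the test (edgeR adjusted p = 0.23). Ctsh, an aminopeptidase, had group means of 447 ± 71.4, 405 ± 17.9 and 605 ± 71 CPM (SD, n = 3) and a log2 change of 0.58 ± 0.18 in NMO+CL against NMO, called by DESeq2 (adjusted p = 0.00697) but not by edgeR (0.127). Ctsb, cathepsin B, had 1079.9 ± 105, 1413 ± 205 and 1283 ± 311 CPM, Ctsz 618 ± 97.8, 821 ± 145 and 902 ± 230.5, and Ctsl 496 ± 91.7, 562 ± 225 and 699 ± 185 CPM. None of these 3 was called by edgeR with all 9 libraries. Ctsz in NMO+CL against Normal (log2 change 0.54 ± 0.21, edgeR adjusted p = 0.117) was called by DESeq2 (0.0491) and by edgeR without NMO+CL replicate 3 (0.0318). These were the only 2 of 16 alternatives that called it, and its log2 change ranged from 0.35 to 0.72 over them all.

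**Figure D2:**
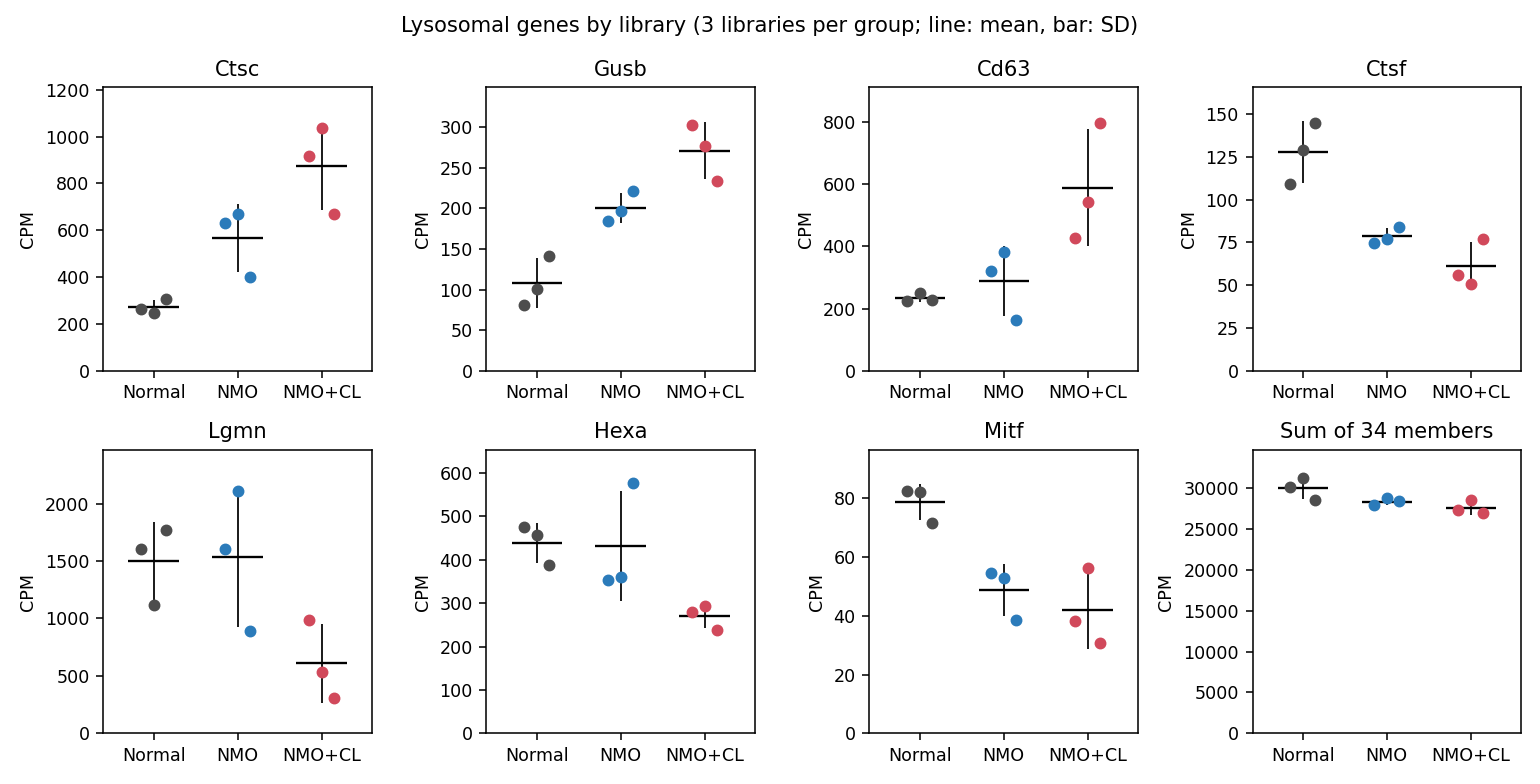
Level in CPM (vertical axis, from 0) of the 7 called lysosomal genes and of the sum over all 34 in each library, by group, with horizontal lines for means and vertical bars for SD (n = 3). Ctsc, Gusb and Cd63 were higher and Ctsf, Lgmn, Hexa and Mitf lower in NMO+CL than in Normal without overlap, whereas the sum stayed between 26965 and 31224 CPM.

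No aspartic or serine protease was called in any comparison by edgeR with all 9 libraries. Ctsd, cathepsin D, the main aspartic protease of the lysosome, was at 7312, 8003 and 5554 CPM in Normal, 5746, 6032 and 4873 in NMO, and 3996, 5026 and 5819 in NMO+CL. The groups overlapped, with a log2 change of -0.49 ± 0.17 in NMO+CL against Normal (edgeR adjusted p = 0.0797). That difference was called by DESeq2 (0.0379) and limma-voom (0.0303), and by edgeR without Normal replicate 3 (0.0452) or NMO+CL replicate 3 (0.0327). Tpp1, a tripeptidyl peptidase whose loss causes a childhood neuronal ceroid lipofuscinosis, had means of 428 ± 42.7, 393 ± 59.8 and 308 ± 72.9 CPM. Ctsa, which protects neuraminidase and beta-galactosidase, had 405 ± 57.3, 382 ± 97.1 and 348 ± 5.08 CPM (SD, n = 3).

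Of the 8 glycosidases, Gusb rose and Hexa fell in NMO+CL against Normal. Gusb (chr5:129989011-130003049), the beta-glucuronidase of glycosaminoglycan breakdown, was at 80.8, 101 and 142 CPM in Normal, 185, 197 and 221 in NMO, and 303, 277 and 234 in NMO+CL. The 3 groups did not overlap. The log2 change was 1.33 ± 0.22 in NMO+CL against Normal (edgeR adjusted p = 8.75e-04), 0.90 ± 0.22 in NMO against Normal (adjusted p = 0.0783) and 0.43 ± 0.21 in NMO+CL against NMO (adjusted p = 0.431). DESeq2 called the difference of NMO from Normal as well (0.00768), and edgeR gave 0.91 for it without NMO replicate 2 (adjusted p = 0.159).

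Hexa (chr9:59539540-59565109), the alpha subunit of beta-hexosaminidase A that degrades GM2 ganglioside, was at 475, 456 and 387 CPM in Normal, 354, 361 and 577 in NMO, and 280.4, 294 and 239 in NMO+CL. NMO+CL lay below both other groups without overlap, and NMO replicate 3 was the highest of all 9. The log2 change was -0.70 ± 0.21 in NMO+CL against Normal (edgeR adjusted p = 0.0418) and -0.67 ± 0.21 in NMO+CL against NMO (adjusted p = 0.135). The call against Normal was lost in 9 of 16 alternatives: on removal of Normal replicate 1 (0.144), 2 (0.131) or 3 (0.0667), NMO replicate 1 (0.053), and NMO+CL replicate 1 (0.0741), 2 (0.0865) or 3 (0.112), with scaling by library totals (0.07) and with the replicate number as a block (0.0544). Over all 16 that log2 change stayed between -0.78 and -0.61. Against NMO it ranged from -0.78 to -0.39 and was called in 2 of 16.

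Man2b1, the lysosomal alpha-mannosidase, had the most counts of the glycosidases. Its levels were 424, 339.8 and 505 CPM in Normal, 398, 499 and 398 in NMO, and 360.2, 308 and 313 in NMO+CL, lower in NMO+CL than in NMO in every library but not called (log2 change -0.40 ± 0.19, edgeR adjusted p = 0.397). The sialidase Neu1 had means of 84.1 ± 16.9, 93.4 ± 14.7 and 102 ± 15.7 CPM, the acid alpha-glucosidase Gaa 58 ± 16.7, 72.1 ± 6.73 and 77.8 ± 7.04, the beta-galactosidase Glb1 47.4 ± 9.26, 35.3 ± 3.59 and 37.8 ± 6.46, and the heparan sulphate enzyme Naglu 88.2 ± 8.8, 83.3 ± 8.77 and 92.6 ± 56.2 CPM (SD, n = 3). The alpha-galactosidase Gla scattered widely within groups, with 12, 30 and 99 counts in Normal, 55, 46 and 58 in NMO, and 122, 25 and 9 in NMO+CL, and was not called, with a standard error of 0.88 on the log2 scale.

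Lipid enzymes and carriers gave no call by edgeR after the filter on low counts. Psap, the precursor of saposins that present sphingolipids to their hydrolases, was at 2474, 3493 and 3743 CPM in Normal, 2963, 2567 and 5550.2 in NMO, and 2591, 2389 and 1835 in NMO+CL. NMO replicate 3 was far above the other NMO libraries, and the log2 change of -0.70 ± 0.24 in NMO+CL against NMO (edgeR adjusted p = 0.195) was -0.27 at its smallest when a library was left out and -0.91 without NMO replicate 2 (adjusted p = 0.0629). It was called when the filter was not applied (adjusted p = 0.00898). Npc2, the soluble carrier that hands cholesterol to Npc1, had means of 587 ± 77.1, 608 ± 53 and 674 ± 27.2 CPM. The thioesterase Ppt1 had 278 ± 36.1, 261 ± 48.9 and 253 ± 36.6 CPM, the acid ceramidase Asah1 128 ± 13.3, 115 ± 43.5 and 104 ± 16, and the acid lipase Lipa 81.7 ± 18.6, 77.7 ± 4.39 and 70.2 ± 14.6 CPM. Progranulin (Grn), a secreted protein that is also cleaved in lysosomes and restrains microglial activation, was at 1185, 1568 and 1222 CPM in Normal, 1007, 1388 and 843 in NMO, and 805, 867 and 1272 in NMO+CL, with overlap between all groups.

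**Figure D3:**
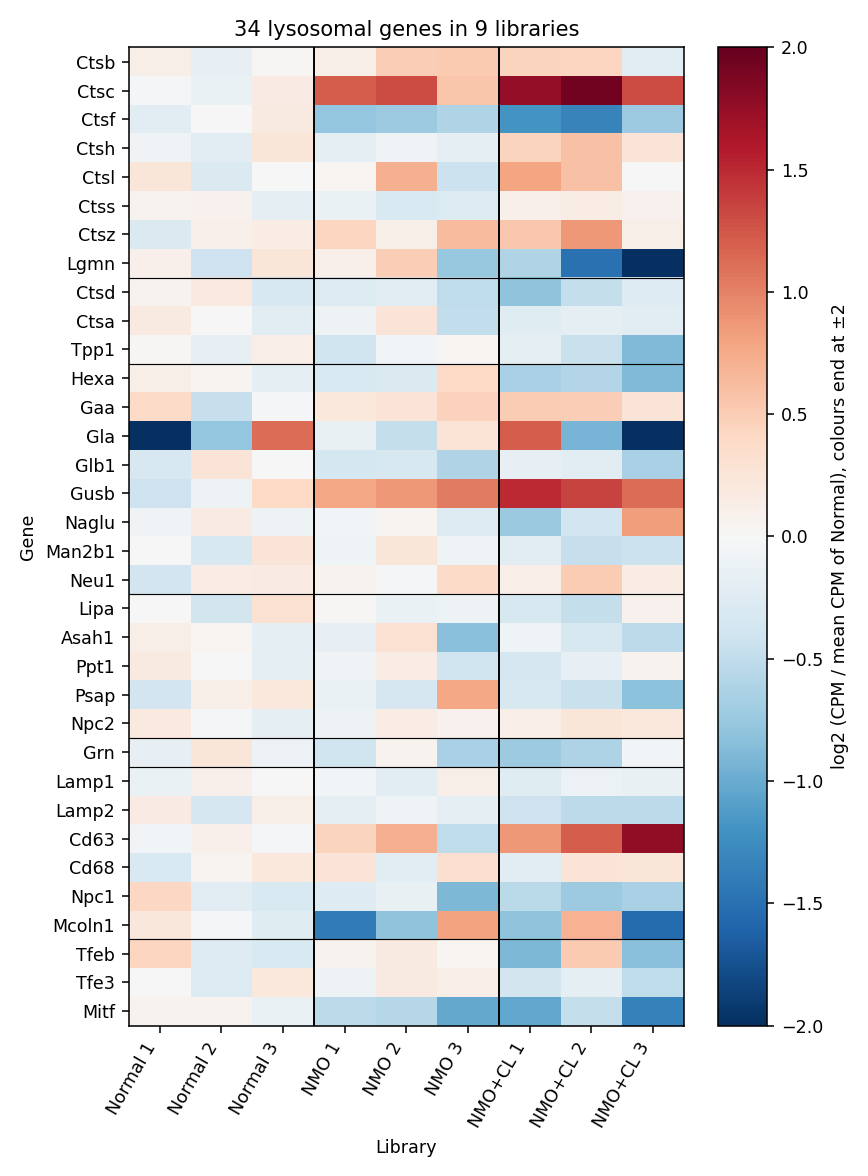
Log2 ratio of each library's CPM to the mean of the Normal libraries (colour, ending at 2 in either direction) for the 34 lysosomal genes, with rows in order of role and the 9 libraries in columns. The rows of Ctsc and Gusb are raised in all NMO and NMO+CL libraries and those of Ctsf and Mitf are lowered, while most other rows stay pale.

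The membrane proteins were led by 1 rise. Cd63 (chr10:128900989-128912822), a tetraspanin of late endosomes and lysosomes, was at 225, 250.4 and 228 CPM in Normal, 319.7, 382 and 164 in NMO, and 428, 541 and 797 in NMO+CL. All NMO+CL libraries lay above all others, while NMO replicate 3 was the lowest of the 9. The log2 change was 1.33 ± 0.27 in NMO+CL against Normal (edgeR adjusted p = 0.00437) and 1.03 ± 0.27 in NMO+CL against NMO (adjusted p = 0.0716). Without NMO replicate 2 the latter was 1.29 (edgeR adjusted p = 0.0284), and without NMO+CL replicate 1 it was 1.21 (0.0291), whereas it was 0.76 without NMO replicate 3 (0.169) and 0.75 without NMO+CL replicate 3 (0.223). The transcript end of Cd63 is shared with its pseudogene Cd63-ps, whose sequence is alike over 500 bases, so that the source of these reads is uncertain.

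Npc1, the membrane cholesterol exporter, was at 361, 231 and 220.1 CPM in Normal, 226, 245 and 145 in NMO, and 187, 164 and 172 in NMO+CL. NMO+CL lay below Normal without overlap, but the log2 change of -0.64 ± 0.23 did not pass the test (edgeR adjusted p = 0.103), though it did without the filter on low counts (0.0473). That was the only 1 of 16 alternatives to call it, and the log2 change ranged from -0.76 to -0.37 over them all. Lamp1, the most counted of the 6 membrane proteins and the gene with 4 E-box cores, was at 832, 979 and 917 CPM in Normal, 872, 777 and 983 in NMO, and 767, 838 and 822 in NMO+CL, with overlap throughout. Lamp2, needed for chaperone-mediated autophagy, had means of 466 ± 84.5, 417 ± 17.5 and 333 ± 15.5 CPM and a log2 change of -0.48 ± 0.18 in NMO+CL against Normal (edgeR adjusted p = 0.104), which DESeq2 called (0.0323). Cd68, a macrophage glycoprotein widely stained as a sign of phagocytic microglia, had 476 ± 83.2, 529 ± 103 and 513 ± 93.2 CPM and was called in no comparison. The calcium channel Mcoln1 was called in no comparison, with a standard error of 0.76 on the log2 scale.

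Of the 3 transcription factors, Mitf fell. Mitf (chr6:97807052-98021349) was at 82.4, 82.3 and 71.7 CPM in Normal, 54.6, 53 and 38.6 in NMO, and 38.2, 56.4 and 30.9 in NMO+CL. Both injected groups lay below Normal without overlap, and they overlapped each other. The log2 change was -0.91 ± 0.27 in NMO+CL against Normal (edgeR adjusted p = 0.0409) and -0.69 ± 0.27 in NMO against Normal (adjusted p = 0.398). The call was lost in 7 of 16 alternatives: without Normal replicate 1 (0.119), 2 (0.13) or 3 (0.0834), without NMO replicate 1 (0.056), without NMO+CL replicate 1 (0.108) or 3 (0.126), and with scaling by library totals (0.0702). Over all 16 the log2 change in NMO+CL against Normal stayed between -1.19 and -0.74. Tfe3 was at 79, 64.6 and 90.9 CPM in Normal, 72.7, 88.9 and 85.5 in NMO, and 60.4, 68 and 55.1 in NMO+CL, lower in NMO+CL than in NMO in every library (log2 change -0.43 ± 0.22, edgeR adjusted p = 0.463). Tfeb was at 20.9, 12.9 and 12.6 CPM in Normal, 16.2, 17.5 and 15.9 in NMO, and 8.32, 22.4 and 8.65 in NMO+CL, with no call and a standard error of 0.47. Counts of transcripts do not show where these factors reside in the cell, by which their activity is mostly controlled.

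A wider list of 104 lysosomal genes that are no members was set beside them, and 103 passed the filter. The V-ATPase subunit Atp6v0d2 did not. Of the 103, 1 rose in NMO against Normal (0.971%, where 0.496% of all genes were called), and 1 fell between NMO+CL and NMO (0.971%, where 1.59% were). Set against Normal, NMO+CL had 4 that rose and 9 that fell, 12.6% of the list against 9.23% of all genes. The medians were -0.09, -0.10 and -0.18 on the log2 scale in the same order.

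Of the 3 cathepsin inhibitors in this list, 1 fell and 1 rose. Cst3, cystatin C, a secreted inhibitor of cysteine cathepsins, was at 22529, 22908 and 24649 CPM in Normal, 17268, 19629.9 and 19342 in NMO, and 11864, 9194 and 6806 in NMO+CL. The 3 groups did not overlap, and the log2 change was -1.01 ± 0.16 in NMO+CL against NMO (edgeR adjusted p = 0.00393) and -1.33 ± 0.16 in NMO+CL against Normal (adjusted p = 6.69e-05). Cst7, cystatin F, an inhibitor directed to lysosomes that acts on cathepsin C, was at 1.91, 0.602 and 1.18 CPM in Normal, 5.03, 9.34 and 3.36 in NMO, and 21, 17.8 and 15.4 in NMO+CL. Its log2 change in NMO+CL against Normal was 3.86 ± 0.71 (edgeR adjusted p = 0.002), a size that rests on 4 to 12 counts per Normal library. The third inhibitor, Cstb, was called in no comparison, with means of 44.8 ± 8.49, 44.7 ± 7.92 and 35.7 ± 6.57 CPM.

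**Figure D4:**
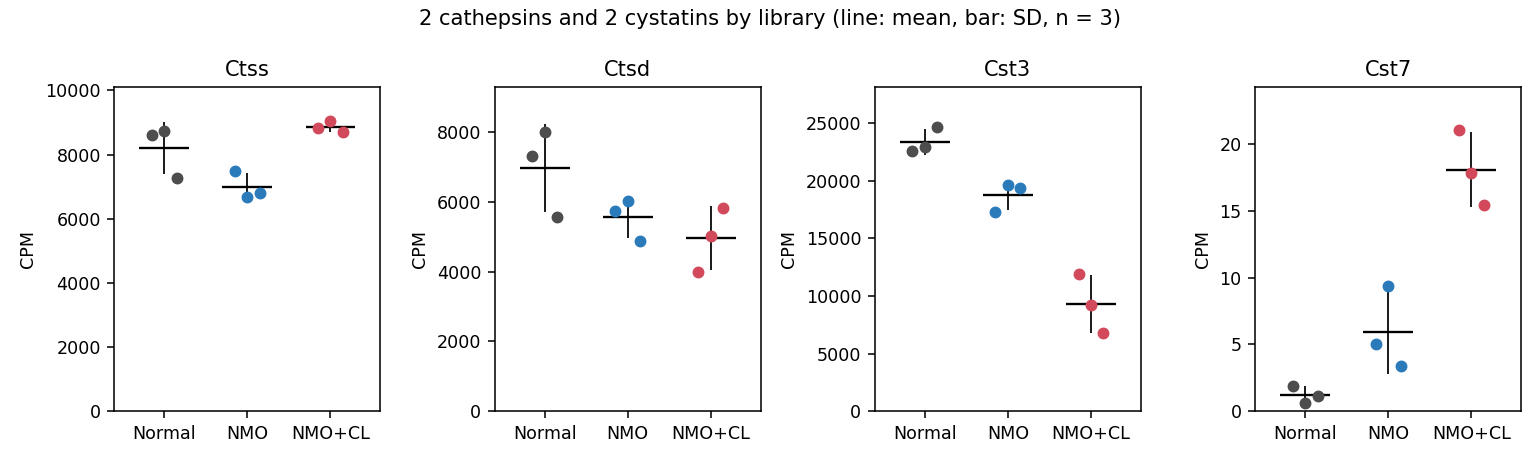
Level in CPM (vertical axis, from 0) of the 2 most counted cathepsins, Ctss and Ctsd, and of the cystatins Cst3 and Cst7 in each library, by group, with lines for means and bars for SD (n = 3). Cst3 steps down from 22529 to 24649 CPM in Normal to 6806 to 11864 CPM in NMO+CL and Cst7 steps up, while the ranges of Ctss and of Ctsd in Normal and NMO+CL overlap.

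Naaa, an amidase of N-acylethanolamines, was the gene of the list that rose in NMO against Normal, from 27.2, 27.1 and 40.5 CPM to 98.1, 85.4 and 57 (log2 change 1.34 ± 0.29, edgeR adjusted p = 0.0447), and the call was lost without NMO replicate 2 (adjusted p = 0.13) and in 8 other alternatives. Between NMO+CL and Normal, Hgsnat, an acetyltransferase of heparan sulphate breakdown, rose from 12.7 ± 1.58 to 37.8 ± 14.9 CPM (log2 change 1.57 ± 0.37, edgeR adjusted p = 0.012) and Atp6v0a1 from 138 ± 9.34 to 221 ± 24.4 CPM (0.67 ± 0.20, 0.0464). Atp6v0a1 was the only one of 16 V-ATPase genes tested that was called in any comparison. Falls in the same comparison were seen for the cation channel Tpcn1, from 123 ± 15.9 to 36.1 ± 18.8 CPM (log2 change -1.77 ± 0.30, edgeR adjusted p = 9.91e-04), the membrane protein Laptm5, from 3202 ± 331 to 2041 ± 343 CPM (-0.65 ± 0.16, 0.0149), and the sulphatase Arsb, from 108 ± 37.7 to 46.2 ± 18.5 CPM (-1.23 ± 0.33, 0.0245). Flcn, a regulator of Rag GTPases, fell from 107 ± 8.39 to 45.7 ± 22.8 CPM, the autophagy kinase Ulk1 from 36.4 ± 21.7 to 8.26 ± 4.52 and the tethering subunit Vps18 from 66 ± 5.66 to 33.6 ± 1.46 CPM. Rnaset2a and Rnaset2b, near-identical copies whose reads cannot be assigned with certainty, fell together: their sum was 1266 to 1659 CPM in Normal and 573 to 710.0 CPM in NMO+CL. Of the calls in NMO+CL against Normal, those of Cst3, Cst7, Tpcn1, Rnaset2a and Rnaset2b held in all 16 alternatives, as did those of the members Ctsc, Gusb, Cd63 and Ctsf. Calls were lost when single libraries were left out for 7 genes, with an adjusted p of up to 0.161 for Atp6v0a1, 0.149 for Vps18, 0.14 for Arsb, 0.0953 for Flcn, 0.0897 for Laptm5, 0.0851 for Ulk1 and 0.074 for Hgsnat. With all libraries kept, the call of Atp6v0a1 was also lost under the replicate block (0.0559), that of Vps18 with library totals (0.0672) and that of Ulk1 with limma-voom (0.0687).

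At their 3′ ends 7 of the 34 members overlap a gene on the opposite strand in GENCODE M21 (Ctsb, Ctsz, Ctsa, Ppt1, Grn, Lamp1 and Npc1). Whether strand was used in counting is not given in the sources used here, so that reads of the partners may be included. None of the 7 called members was among them.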

How the data were processed

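Read counts per gene were deposited by the authors for 9 libraries of sorted microglia. They prepared QuantSeq 3′ libraries, sequenced 75-base single reads, aligned them with Bowtie2 (build mm10 per the submitters' processing notes) and took whole-number counts, multiple alignments included, with Bedtools. The annotation and strand setting are not given in the sources used here. Reads mark transcript 3′ ends, so that counts were not divided by length.

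Entries of a symbol were summed (23282 entries, 23238 symbols). Genes were kept by filterByExpr (minimum count 10, minimum total 15), which left 12292. R 4.3.3 and edgeR 4.0.16 were used with TMM scaling and a quasi-likelihood fit of all 9 libraries with 1 coefficient per group. F-tests were two-sided, with Benjamini-Hochberg adjustment over all genes tested in a comparison. CPM values use TMM-scaled library sizes, and errors beside means are SDs. The alternatives used limma 3.58.1 and DESeq2 1.42.0, other scalings and filters, the replicate number as a block, and removal of each library. The common biological coefficient of variation was 0.519. Replicates differed by more than counting error (chi-square per degree of freedom 21.9 to 51.1).

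The members, the wider lists and the markers were chosen with earlier results of these data known. Values in every library are given for called members, the most counted member of each role, the transcription factors, and members at least 1.5-fold changed without overlap; of the wider list, genes called in any comparison and, for completeness, Cstb were named. A gene of the wider list that was called is counted but not reported here by name. Promoters came from RefSeq GRCm38.p6, gene positions from GENCODE M21.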

Additional observations from a re-analysis of the deposited data

How the results depend on the processing

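Not every gene was followed through every alternative. Of the gene changes that were, 2 near 0 in NMO against Normal turned in direction, and other members near 0 there may turn too, since library totals moved the members' median past 0. The log2 change of Lgmn was 0.03 and became 0 under limma-voom, -0.06 under the replicate block and -0.27 to 0.29 when 1 library was left out. That of Hexa was -0.03 and became 0.08 with library totals alone and -0.31 to 0.08 with a library left out. The members' median in NMO against Normal was -0.06 and turned to 0.04 with library totals. The counts of members called moved as follows. In NMO against Normal, 1 was higher, and 2 were with all genes kept, with DESeq2 and with a 1.5-fold change at an unadjusted p under 0.05 (a rule added after seeing the data, which also gave 2 lower), 0 with only the 2 groups compared, and 0 to 1 with a library left out. Between NMO+CL and NMO, 0 were higher and 0 lower. All genes kept gave 1 higher and 3 lower, DESeq2 3 and 1, limma-voom 1 and 1, the 1.5-fold rule 2 and 3, library totals 0 and 1, the replicate block 0 and 1 (Lgmn, adjusted p = 0.0265), and leaving out a library 0 to 1 of each. Between NMO+CL and Normal, 3 higher became 5 with DESeq2, and 4 lower became 5 with all genes kept, limma-voom and DESeq2 (with DESeq2 Lgmn was lost, and Ctsd and Lamp2 gained), 2 with library totals, 3 with the replicate block (Hexa lost, adjusted p = 0.0544) and 1 to 4 with a library left out. Of all genes, the shares called in NMO against Normal, NMO+CL against NMO and NMO+CL against Normal were 1.29%, 2.87% and 8.39% with all genes kept, 0.781%, 1.58% and 9.01% with library totals, 1.81%, 3.86% and 12.8% with DESeq2, 0.350%, 1.49% and 8.79% with limma-voom, 0.293%, 0.641% and 10.2% with only the 2 groups, and 0.431%, 1.60% and 9.14% with the block. With a library left out they were 0.155 to 0.577%, 0.392 to 1.78% and 4.99 to 9.68%. In the wider list, 1 higher in NMO against Normal became 0 with limma-voom, only the 2 groups and the replicate block, 5 with the 1.5-fold rule and 0 to 1 with a library left out, and 0 lower became 1 with all genes, 2 with DESeq2 and 5 with the 1.5-fold rule. Between NMO+CL and NMO the list's 1 lower became 7 with all genes, 2 with library totals, 4 with DESeq2, 3 with limma-voom, 2 with the replicate block, 9 with the 1.5-fold rule and 1 to 5 with a library left out, and its 0 higher became 3 with the 1.5-fold rule. For NMO+CL against Normal its 4 higher became 7 with DESeq2, 9 with the 1.5-fold rule and 2 to 5 with a library left out, and its 9 lower became 18 with the 1.5-fold rule and 4 to 10 with a library left out. The cause was not tested. Same-numbered libraries of different groups did not deviate together (correlations -0.0195 to 0.0382 over 9 pairs), so the numbers are names and the block is an alternative only. With 3 libraries a group, only large changes would pass for genes with wide standard errors such as Gla, Mcoln1 and Tfeb.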
